A study of Mus musculus with 8 samples.

Results

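Dnase1 and Pdia2 encode enzymes that secretory cells make for export or keep in the endoplasmic reticulum, and they were described here in mouse intestinal organoids with and without overexpression of MG53. The pair was selected on the very values reported here, their FPKM (read fragments scaled by the length of the transcript and the size of the library) in the 8 RNA-seq samples, so their levels, starts and splice forms are given as a description with no test. They are 2 of 13706 genes that had a value in the deposited tables. The organoids came from intestinal crypts, embedded in Matrigel and grown in IntestiCult OGM medium, and were compared as 4 WT samples from wild type littermates and 4 MG53-TG samples from transgenic mice that overexpress MG53, the protein of the Trim72 gene, in all tissues. The labels give the genotypes as wild type and MG53-TG, but the study's text also describes crypt organoids of MG53-TG mice crossed with an Lgr5 reporter line and of Lgr5 reporter controls, and whether these 8 samples carry that allele is not settled by the sources used here. No promoter, strain, age or passage is given for these samples in the sources used here. Nothing says whether the 4 samples of a group came from separate animals or cultures, so the p-values below measure only the spread between samples, which may be technical. The comparison asked which genes change in the epithelium when MG53 is overexpressed.

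Trim72 matched the labels, as it had no entry in the 4 WT samples and stood at 16.4, 27.4, 31.9 and 36.5 FPKM in MG53-TG 1 to 4. Summed over all start events, WT samples held 269837 to 273797 FPKM and MG53-TG samples 269094 to 284330 FPKM. Over all genes, samples of the same group correlated at 0.94 to 0.98 and samples of different groups at 0.83 to 0.90 (Pearson's r of log2 values, across genes, which are not independent replicates). The epithelial markers Epcam, Cdh1, Krt8, Krt18, Krt19, Cldn7 and Vil1 were all detected and summed to 2137 to 2465 FPKM in WT and 1791 to 2267 FPKM in MG53-TG. Of these 7, Vil1 rose and 4 fell (Cdh1, Cldn7, Krt8 and Krt18, limma), where 15.7% of all genes were called higher in MG53-TG and 29.3% lower. Krt19 ran from 102 to 490 FPKM within MG53-TG. MG53-TG 1 and 2 stood apart from MG53-TG 3 and 4 in markers of stem and mature cells. Olfm4, a crypt base marker, was at 50.1 and 57.7 FPKM in MG53-TG 1 and 2, at 6.07 and 0.948 FPKM in MG53-TG 3 and 4 and at 153 to 292 FPKM in WT. Krt20, a keratin of mature epithelial cells, was at 81.6 and 76.8 FPKM in MG53-TG 1 and 2, at 186 and 198 FPKM in MG53-TG 3 and 4 and at 15.9 to 22.6 FPKM in WT. The read depth of the samples is not in these tables, so no counting interval can be given for any value.

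Dnase1 is deoxyribonuclease I, a secreted endonuclease that cuts double-stranded DNA outside cells and degrades DNA from food, dying cells and microbes. In the mouse small intestine its transcript is known from Paneth cells, the granule-bearing secretory cells of the crypt base. Pdia2 is the pancreas-type protein disulfide isomerase, a resident of the endoplasmic reticulum best known from the acinar cells of the pancreas. Enzymes of this family make, break and rearrange disulfide bonds in newly made secretory proteins, and oxidases such as Ero1l and Qsox1 supply the oxidising power.

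Dnase1 (ENSMUSG00000005980) lies on the plus strand at chr16:4036942-4040024 of GRCm38 and spans 3083 bases. Pdia2 (ENSMUSG00000024184) lies on the minus strand at chr17:26195999-26199087 and spans 3089 bases. The GENCODE annotation lists 11 transcripts of Dnase1 and 4 of Pdia2. The coding sequence of Dnase1-201 has 852 bases in 8 exons, and that of Pdia2-201 has 1581 bases in 11 exons. Both genes had forms that differ at an exon boundary inside the coding sequence, and these exons are shown because the share of each form was measured in every MG53-TG sample. Each is written 5′ to 3′ on the strand of its gene, with capitals for the bases that the shortest listed form of the exon lacks. The first is the Dnase1 exon at chr16:4038943-4039055, the second the Pdia2 exon at chr17:26197617-26197754.
Dnase1 exon: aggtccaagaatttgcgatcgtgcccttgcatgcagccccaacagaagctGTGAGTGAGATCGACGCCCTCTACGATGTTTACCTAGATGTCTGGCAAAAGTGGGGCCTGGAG
Pdia2 exon: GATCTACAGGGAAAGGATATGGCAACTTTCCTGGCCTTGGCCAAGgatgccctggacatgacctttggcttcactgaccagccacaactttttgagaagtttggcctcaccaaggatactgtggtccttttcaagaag
The capitals of the Dnase1 exon are 63 bases at its 3′ end, and those of the Pdia2 exon are 45 bases at its 5′ end. Both lengths are multiples of 3. The listed models with the shortened Dnase1 exon, however, joined it to a next exon that begins 16 bases earlier than in the coding models, which brings the net loss at this junction to 47 bases, not a multiple of 3. The annotated transcripts with this exon pair are a noncoding one and one marked for nonsense-mediated decay.

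Because both genes rose together, the bases before their first annotated start are also shown, from RefSeq promoter windows on GRCm38.p6. The Dnase1 stretch runs from chr16:4036786-4036941 and the Pdia2 stretch is the whole gap to the next gene, chr17:26199088-26199182.
Dnase1 upstream: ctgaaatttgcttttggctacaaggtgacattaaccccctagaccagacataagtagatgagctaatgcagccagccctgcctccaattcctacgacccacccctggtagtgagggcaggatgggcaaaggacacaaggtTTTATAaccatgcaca
Pdia2 upstream: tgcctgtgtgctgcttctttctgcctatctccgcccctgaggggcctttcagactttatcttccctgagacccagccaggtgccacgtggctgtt
The capitals mark the reverse complement of TATAAA at chr16:4036926-4036931. The windows, which run from 250 bases before to 50 bases after a start, were searched on both strands for TATAAA (the TATA box), CTTTGAT (TCF/LEF), AGGTCA (a site of nuclear receptors), GATAAG (a site of GATA factors), TTTATG (CDX), TGACGTGG (element of the unfolded protein response) and CAGCTG (E-box of bHLH factors). Dnase1 has 2 such windows. They hold TATAAA on the strand opposite to the gene and AGGTCA once, at chr16:4037093-4037098, and the Pdia2 window holds none of the motifs. This AGGTCA lies downstream of the starts at 4036942, 4036970 and 4036973, which carried most of Dnase1 in MG53-TG, as given below. Of 32851 windows of this length, 13.6% hold TATAAA, 16.3% AGGTCA, 16.3% CAGCTG, 11.9% TTTATG, 7.44% GATAAG, 3.73% CTTTGAT and 0.676% TGACGTGG.

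Dnase1 stood at 0.335, 0.281, 0.201 and 0.352 FPKM in WT 1 to 4. In MG53-TG 1 to 4 it stood at 42.0, 55.4, 61.9 and 66.6 FPKM. The groups did not overlap, and the lowest MG53-TG sample was 119-fold above the highest WT sample. The means were 0.292 ± 0.0678 FPKM in WT and 56.5 ± 10.7 FPKM in MG53-TG (SD, n = 4 each), a ratio of 193. The difference of log2(FPKM + 1) was 5.46, which understates the ratio because the WT values lie below the added 1 FPKM. By mean level among 10707 genes, Dnase1 was at rank 10527 in WT and at rank 868 in MG53-TG, which is the 1.69th percentile against the 91.9th. These genes had a mean of at least 0.5 FPKM over the 8 samples, which Dnase1 reached through MG53-TG alone. Genes low in both groups were left out, so its low rank in WT follows in part from this filter.

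Pdia2 stood at 2.61, 2.84, 3.67 and 5.76 FPKM in WT 1 to 4. In MG53-TG 1 to 4 it stood at 143, 146, 161 and 161 FPKM. These groups did not overlap either, and the lowest MG53-TG sample was 24.8-fold above the highest WT sample. The means were 3.72 ± 1.43 FPKM in WT and 153 ± 9.69 FPKM in MG53-TG (SD, n = 4 each), a ratio of 41.0 and a difference of 5.07 on the log2(FPKM + 1) scale. Pdia2 moved from rank 7791 to rank 302 of the 10707 genes by mean level, from the 27.2nd to the 97.2nd percentile.

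**Figure D1:**
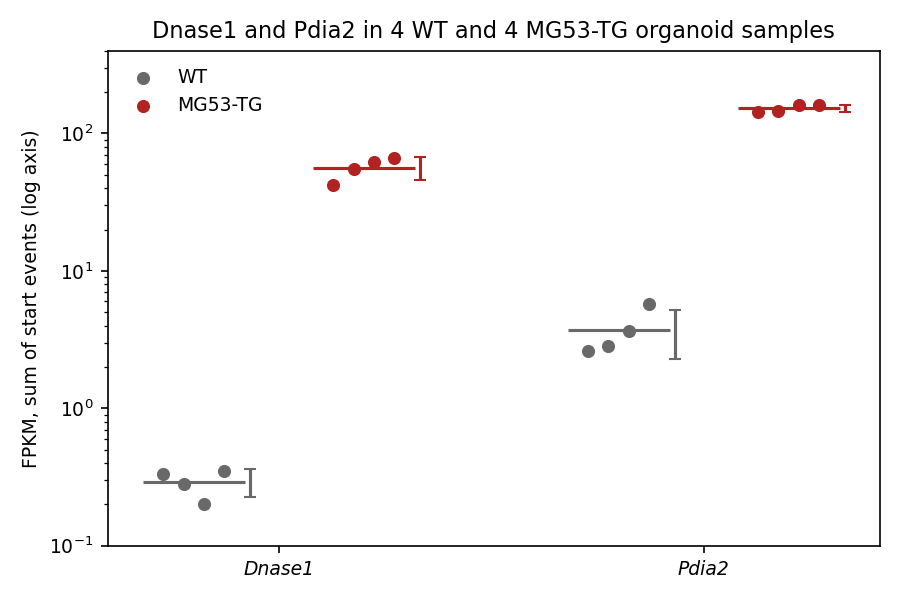
Level of Dnase1 and Pdia2 in each sample, in FPKM on a log axis, with WT in grey and MG53-TG in red. Points are samples 1 to 4 of a group from left to right, lines are means and bars are 1 SD. For both genes all 4 MG53-TG points lie above all 4 WT points, by 119-fold at the closest for Dnase1 and by 24.8-fold for Pdia2.

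The spread between samples differed between the genes. The coefficient of variation of Dnase1 was 23.2% in WT and 18.9% in MG53-TG, and that of Pdia2 was 38.5% in WT and 6.35% in MG53-TG. Dnase1 was lowest in MG53-TG 1 and highest in MG53-TG 4, while Pdia2 varied less across those samples. Both genes were lower in MG53-TG 1 and 2 than in MG53-TG 3 and 4, the same split as in Olfm4 and Krt20, and the part of that split in their levels was not tested. Against the 4 WT samples, the log2 difference of Dnase1 was 5.25 in MG53-TG 1 and 2 and 5.66 in MG53-TG 3 and 4, and that of Pdia2 was 4.99 and 5.15. FPKM is scaled by transcript length, so the genes can be set beside each other. Pdia2 was above Dnase1 in all 8 samples, by 7.79, 10.1, 18.2 and 16.4 times in WT 1 to 4 and by 3.40, 2.63, 2.60 and 2.42 times in MG53-TG 1 to 4.

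By the difference of log2(FPKM + 1), Dnase1 ranked 5 and Pdia2 ranked 6 of 10707 genes, and 3 and 4 of 10096 protein-coding genes. With a pseudocount of 0.1 Pdia2 ranked 23 of 10707, and by end events alone Dnase1 ranked 14 of 8448. Above them stood mt-Tp (a mitochondrial tRNA), the pseudogene Gm28661, and Reg1 and Reg3a, which encode secreted lectins of the Reg family. The next below were Ugt2b38 and Apoc3 (an apolipoprotein), at 4.98 and 4.94. For background, 45.0% of the 10707 genes passed the limma test at an adjusted p of 0.05 or less, 15.7% higher and 29.3% lower in MG53-TG, and 44.7% had groups that did not overlap. With median-of-ratios scaling 50.4% of the calls were higher, against 34.9% here. The values of both genes were used to choose them, so nothing is read from their place against these shares. In bulk RNA, a change in the number of cells that hold a transcript and a change in its level per cell cannot be told apart.

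The deposited tables break each gene into events, which are the first exons, last exons, retained introns, skipped exons and alternative exon ends of its transcript models, each with the FPKM of the models that carry it. Dnase1 had 35 events of 12 types and Pdia2 had 7 of 3 types, and all of their boundaries match annotated exons. The 35 Dnase1 events were listed in each MG53-TG sample, against 11, 6, 11 and 17 in WT 1 to 4. The 7 Pdia2 events were listed in each MG53-TG sample, against 7, 7, 5 and 6 in WT 1 to 4. An event without an entry is called that below, since it need not be absent.

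Dnase1 transcript models began at 5 places, of which 4 had more than traces. The first start, chr16:4036942, had no entry in WT and carried 23.0, 4.67, 16.2 and 23.7 FPKM in MG53-TG 1 to 4, or 54.8%, 8.43%, 26.1% and 35.5% of the start sum. The second, 4036970, carried 0.0333, 0.0776, 0.0136 and 0.0729 FPKM in WT and 1.05, 2.73, 0.261 and 3.93 FPKM in MG53-TG. The third, 4036973, carried 17.8, 47.7, 45.1 and 38.9 FPKM in MG53-TG, or 42.3%, 86.2%, 72.9% and 58.4%, and had entries of 0.122 and 0.0228 FPKM in WT 1 and WT 3 alone. These 3 starts lie within 31 bases and together made up 99.6%, 99.5%, 99.5% and 99.9% of Dnase1 in MG53-TG 1 to 4, but how FPKM divides between them differs widely from sample to sample.

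The fourth start, 4037098, opens a model whose first exon reads on to 4038042 across introns of the coding models. It stood at 0.180, 0.203, 0.165 and 0.279 FPKM in WT 1 to 4 and at 0.158, 0.268, 0.308 and 0.0898 FPKM in MG53-TG 1 to 4. Its means were 0.207 ± 0.0507 FPKM in WT and 0.206 ± 0.10 FPKM in MG53-TG (SD, n = 4 each), and the groups overlapped. It made up 53.7%, 72.4%, 81.9% and 79.3% of the Dnase1 start sum in WT 1 to 4, and 0.135% to 0.497% in MG53-TG. The difference in the start sum thus lay in the 3 starts before it. A short model of exons 4038222-4038270 and 4038516-4038871, those of a noncoding annotated transcript, has no start event and is not in the start sum. It stood at 0.115, 0.315, 0.131 and 0.0809 FPKM in WT 1 to 4 and at 0.342, 0.541, 0.435 and 1.23 FPKM in MG53-TG 1 to 4, without overlap of the groups. With this model added, the fourth start made up 40.0%, 34.1%, 49.7% and 64.5% of Dnase1 in WT. The fifth start, 4039130, had 0.000303 to 0.000437 FPKM in MG53-TG and no entry in WT.

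The first intron after the start codon, the 256 bases at chr16:4037698-4037953, was removed in some models and retained in others, and together these make up the start sum. The models with the intron removed carried 41.2, 54.9, 61.3 and 65.8 FPKM in MG53-TG 1 to 4. In WT they had entries of 0.122, 0.0228 and 0.00455 FPKM in samples 1, 3 and 4 and none in WT 2. The models that retain the intron, that of the fourth start included, carried 0.213, 0.281, 0.178 and 0.347 FPKM in WT 1 to 4 and 0.786, 0.485, 0.556 and 0.877 FPKM in MG53-TG 1 to 4. The spliced share was 98.1%, 99.1%, 99.1% and 98.7% in MG53-TG 1 to 4, and 36.4%, 11.4% and 1.29% in WT 1, WT 3 and WT 4. It was thus lower in each WT sample with an entry than in any MG53-TG sample, but varied widely in WT, where it rests on less than 0.4 FPKM.

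Downstream, the annotated last exon that ends at 4040024 carried 23.0, 18.4, 16.2 and 62.3 FPKM in MG53-TG 1 to 4, and 0.00455 FPKM in WT 4 as the lone WT entry. This was 54.9%, 33.3%, 26.1% and 93.5% of the start sum. A further 27.8%, 61.2%, 72.6% and 0.00226% of the start sum (11.7, 33.9, 44.9 and 0.00151 FPKM) went to models with an exon at 4039130-4039256, the last exon of Dnase1-205. That annotated transcript is incomplete at its 3′ end, so this is an unfinished model rather than a mapped transcript end. Another 0.984%, 4.44%, 0.0176% and 4.62% went to models that end at 4039339 with the last exon of a noncoding annotated transcript. This leaves 16.4% of the start sum without any of these 3 ends in MG53-TG 1 and less than 2% in each of the other MG53-TG samples. In MG53-TG 1 and 3 the first start and the full-length end had the same FPKM to 3 digits, and in MG53-TG 2 and 4 they did not. The level of Dnase1 from end events alone was accordingly lower, with a log2 difference of 4.74 in place of 5.46.

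**Figure D2:**
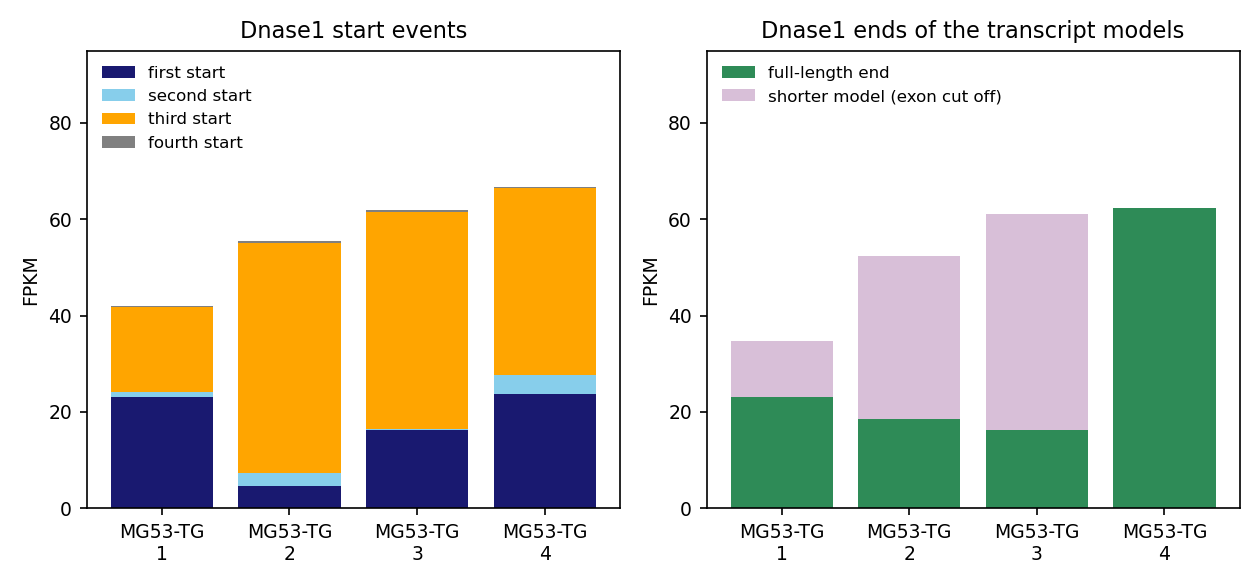
FPKM of Dnase1 in MG53-TG 1 to 4 by first exon (left, starts numbered in order along the gene) and by last exon (right, the full-length end and the unfinished model). Bars are stacked. The third start carries between 42.3% and 86.2% of the start sum, and the full-length end carries between 26.1% of it in MG53-TG 3 and 93.5% in MG53-TG 4.

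Other Dnase1 exons had both alternative forms listed in MG53-TG only. Before the start codon at 4037551, an exon that begins at 4037308 is 49 bases longer than its alternative and made up 56.2%, 6.41%, 25.9% and 37.7% of the pair in MG53-TG 1 to 4, close to the shares of the first start. In WT the shorter alternative alone had entries, of 0.122 and 0.0228 FPKM in WT 1 and WT 3. The coding exon printed above was used in full in 98.6%, 93.3%, 99.5% and 95.2%, so the form lacking its last 63 bases made up 1.44%, 6.74%, 0.465% and 4.80%. Each listed model of that form joins the next exon at 4039114 in place of 4039130, and these models summed to 0.505, 3.69, 0.284 and 3.14 FPKM in MG53-TG 1 to 4, highest in MG53-TG 2. Of this FPKM, 81.9%, 66.6%, 3.84% and 98.2% was in models that end with that exon at 4039339 and lack the later exons. Skipping of the exon at 4039545-4039641 was at most 0.00237%.

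Pdia2 had 1 listed start and 1 listed end. The first exon of the listed start is chr17:26198826-26199008. On the minus strand its outer boundary, 26199008, lies inside the coding sequence, which begins at 26199033. The annotated start at 26199087, whose upstream sequence is printed above, was not listed as a start. The end, chr17:26195999, carried 2.55, 3.26, 2.61 and 5.79 FPKM in WT 1 to 4 and 143, 146, 161 and 161 FPKM in MG53-TG 1 to 4. This was 97.8%, 114%, 71.3% and 100.5% of the start in WT, and 100.05% to 100.1% in MG53-TG. Start and end of Pdia2 thus gave the same level in each MG53-TG sample and differed most in WT 3, unlike Dnase1.

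The Pdia2 exon printed above was used in full in 95.2%, 96.5%, 100% and 91.4% in WT 1 to 4 and in 99.0%, 98.9%, 98.9% and 98.7% in MG53-TG 1 to 4. The form lacking its first 9 bases made up 0.890%, 0.977%, 1.07% and 1.25% in MG53-TG. In WT this form made up 2.18%, 0.985% and 8.62% in samples 1, 2 and 4, with no entry in WT 3. The form lacking all 45 capitals made up 0.0675% to 0.0864% in MG53-TG and 2.63% and 2.52% in WT 1 and WT 2, with no entry in WT 3 and WT 4. A second exon, chr17:26196682-26196802, had a form 18 bases shorter that made up 0.492%, 0.507%, 2.26% and 0.623% in WT and 0.194%, 0.137%, 0.156% and 0.151% in MG53-TG. In FPKM the shorter form rose from 0.0363 ± 0.0334 to 0.243 ± 0.0327 (SD, n = 4 each) as the gene did, while no MG53-TG sample reached the share of the lowest WT sample. Shares in WT rest on levels of a few FPKM, and the read depth behind them is unknown.

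Of 16 other genes for DNA-degrading enzymes, 11 had a value, 10 passed the filter and were tested, 2 rose and 1 fell (limma on log2(FPKM + 1), Benjamini-Hochberg over 10707 genes). That is 30.0% called against 45.0% of all genes, with a median log2 difference of 0.14 against -0.17 over all genes. Tatdn3, a putative metal-dependent deoxyribonuclease, rose from 1.72 ± 0.392 to 4.50 ± 1.57 FPKM (log2 difference 0.98, adjusted p = 0.00629). Dnase1l1, the relative of Dnase1 best known from muscle, rose from 3.14 ± 0.451 to 5.20 ± 1.35 FPKM (0.56, adjusted p = 0.0359), a call that was lost in 7 of 8 limma fits that each left out 1 sample, where the adjusted p reached 0.0932. The exception was the fit without MG53-TG 4, with a log2 difference of 0.74. Exog, a mitochondrial endonuclease, fell from 2.27 ± 0.379 to 1.00 ± 0.522 FPKM (-0.74, adjusted p = 0.0146). Dnase2a, the lysosomal deoxyribonuclease, was at 6.26 ± 2.55 and 6.30 ± 5.10 FPKM and did not pass (adjusted p = 0.788). Dnase1l2 lay under the filter, at 0.0809 ± 0.0792 and 0.550 ± 0.383 FPKM. Of these 3 calls, Tatdn3 alone passed both without MG53-TG 1 and 2 and without MG53-TG 3 and 4, as Dnase1l1 did not pass without the former pair nor Exog without the latter (limma). By mean FPKM of the nucleases with a value, Dnase1 was above Dnase1l2 alone in WT and above all of them in MG53-TG. Dnase1 was chosen on this contrast, so nothing is read from that place.

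Of 29 other genes of the disulfide isomerase family and its oxidases, 26 had a value, 25 were tested, 4 rose and 13 fell, so 68.0% were called against 45.0% of all genes, and the median log2 difference was -0.79 against -0.17. P4hb, the main and most abundant disulfide isomerase, rose from 269 ± 20.0 to 429 ± 71.5 FPKM (log2 difference 0.66, adjusted p = 0.00303, limma). The other 3 that rose were Vkorc1, the vitamin K epoxide reductase (1.70), the oxidase Ero1lb (1.22) and Txndc15 (0.41). Among those that fell, Agr2, the isomerase of mucus-producing cells, went from 88.1 ± 12.8 to 13.6 ± 4.94 FPKM (-2.66, adjusted p = 6.11e-05) and the oxidase Ero1l from 365 ± 127 to 65.6 ± 2.40 FPKM (-2.40, adjusted p = 5.15e-05, and -5.15 with an adjusted p of 0.00570 by end events alone, limma). Qsox2, Prdx4 and Qsox1, which also oxidise thiols, fell by 1.87, 1.57 and 1.36. Pdia2 was the 1 disulfide isomerase in this set with a log2 difference above 2, and in MG53-TG its mean of 153 FPKM was second to that of P4hb. It was chosen on this contrast, so its place in the set is a description from which nothing is read.

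Pdia2 is best known from the pancreas, so 36 genes of the exocrine pancreas were examined, of which 13 had a value. Of 12 tested, 6 rose and 3 fell, 75.0% called against 45.0% of all genes (15.7% higher and 29.3% lower), with a median log2 difference of 1.03 against -0.17. These counts, the 75.0% and the 1.03 include Pnliprp1, Sycn and Bhlha15. These 3 genes passed the filter through 1 group alone, as the mean of the other group lay under 0.5 FPKM, and are given below as values without a call. Of the 9 other genes tested 5 rose and 1 fell, 66.7% called against 43.3% of all genes with both group means at 0.5 FPKM or more. Zg16 held the middle log2 difference of these 9 genes, 1.33, and did not pass (adjusted p = 0.116, limma). Reg1, a secreted lectin, rose from 2.88 ± 0.665 to 353 ± 170 FPKM (log2 difference 6.38, adjusted p = 3.68e-06, limma). Spink1, a trypsin inhibitor, rose from 2.70 ± 0.537 to 117 ± 58.0 FPKM (4.87, adjusted p = 1.18e-05). Pnliprp2, a lipase, rose from 10.3 ± 2.01 to 107 ± 6.63 FPKM (3.27, adjusted p = 7.68e-07). Ctrb1, chymotrypsinogen, rose from 4.04 ± 1.25 to 26.3 ± 21.5 FPKM (2.09, adjusted p = 0.0124). It stood at 32.7 and 54.0 FPKM in MG53-TG 1 and 2 and at 9.79 and 8.78 FPKM in MG53-TG 3 and 4. Reg1 and Spink1 were instead higher in MG53-TG 3 and 4 than in MG53-TG 1 and 2. Pnliprp1, a lipase relative, had 0.260 and 0.195 FPKM in WT 1 and WT 2 and no entry in WT 3 and WT 4, which was taken as 0, and 0.223, 2.47 and 2.59 FPKM in MG53-TG 1, 3 and 4 and no entry in MG53-TG 2, which was taken as missing. Its log2 difference was 1.16, or 0.83 with each sample without an entry taken as 0 and 0.38 from start events alone. Sycn, a protein of zymogen granules, stood at 6.48 ± 1.34 FPKM in WT (SD, n = 4) and at 0.285 FPKM in MG53-TG 2, with no entry in the other MG53-TG samples. Bhlha15, a transcription factor of cells that secrete much protein, stood at 2.77, 2.70, 1.71 and 2.24 FPKM in WT 1 to 4 and at 0.776 and 0.494 FPKM in MG53-TG 3 and 4, with no entry in MG53-TG 1 and 2. Clps, colipase, fell by 0.60 (adjusted p = 0.0183), a call lost without WT 1 (adjusted p = 0.0510) or WT 2 (adjusted p = 0.0523) and with median-of-ratios scaling (0.0573) or quantile normalization (0.0534, limma).

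Of the 8 markers that define pancreatic acinar cells, 7 had no entry in any sample (Cpa1, Cela2a, Prss2, Pnlip, Amy2a5, Cel and Ptf1a). The eighth was Ctrb1, at 2.77 to 5.74 FPKM in WT and 8.78 to 54.0 FPKM in MG53-TG. A gene without an entry is not shown to be silent in these tables. A value was present for 64.0% of 17474 protein-coding genes with several annotated transcripts, for 28.8% of 3200 with 1 transcript of several exons and for 2.51% of 1277 with 1 transcript of 1 exon, and of the 23 pancreas genes without an entry 13 have several transcripts.

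**Figure D3:**
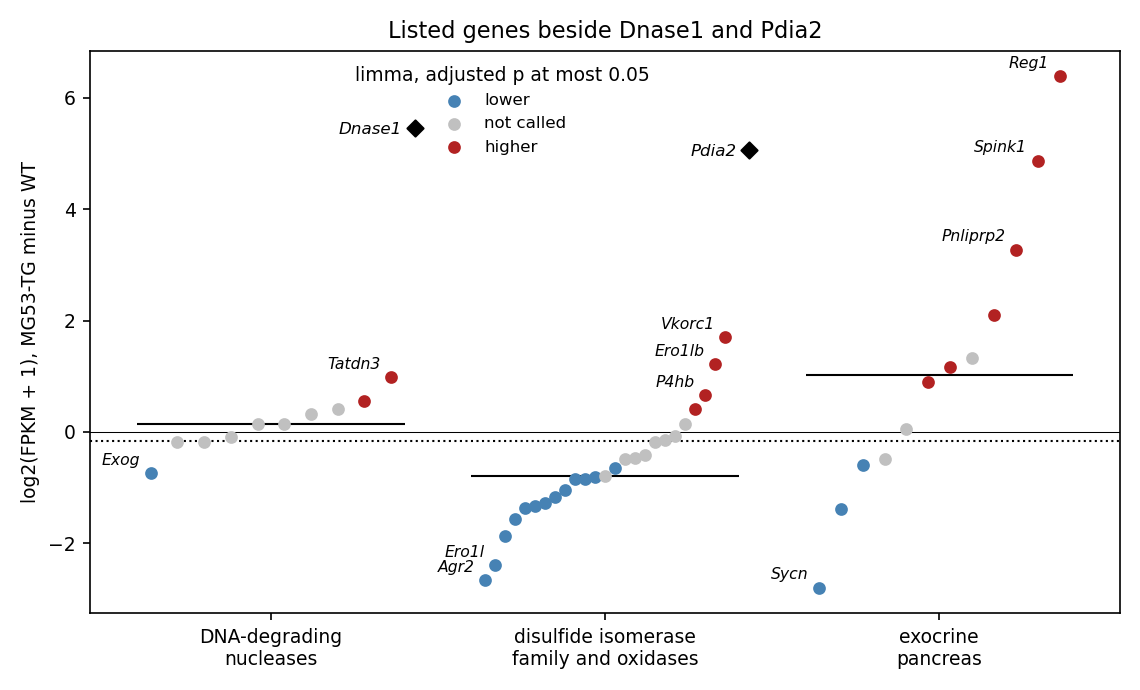
Difference of log2(FPKM + 1), MG53-TG minus WT, for the tested genes of 3 lists, ordered within each list. Colours give the limma call, solid black lines the list medians (0.14, -0.79 and 1.03), the dotted line the median of all genes (-0.17), and black diamonds Dnase1 and Pdia2, which are not counted in the lists. Pnliprp1, Sycn and Bhlha15 are coloured by the fit and counted in the median of 1.03, although no call is given for them in the text.

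Dnase1 and Pdia2 are on different chromosomes, and each was set beside the protein-coding genes within 100 kb. All 12 of these neighbours were tested. Nlrc3 passed the filter through MG53-TG alone and is left out of the count. Of the other 11, 5 rose and 0 fell (limma, and likewise 0 lower at an unadjusted p under 0.05). Of all genes with both group means at 0.5 FPKM or more, 14.6% were called higher and 28.7% lower. Without MG53-TG 1 and 2, Axin1 passed as lower (limma). The largest log2 difference among the neighbours was 2.21 (Rgs11). Dnase1 and Pdia2 were chosen on this difference, so nothing is read from the gap to their neighbours.

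Next to Pdia2, Arhgdig lies upstream on the same strand, 95 bases from the Pdia2 gene, and the gap between them is the upstream sequence printed above. Arhgdig stood at 12.0, 12.1, 11.9 and 14.5 FPKM in WT 1 to 4 and at 58.9, 73.0, 51.9 and 57.3 FPKM in MG53-TG 1 to 4, and the groups did not overlap. Its log2 difference was 2.16 (SE 0.12, adjusted p = 5.12e-06, limma). Rgs11, a regulator of G protein signalling that lies 3863 bases from Pdia2, rose from 3.23 ± 1.09 to 18.3 ± 3.53 FPKM (2.21, SE 0.21, adjusted p = 8.54e-05, limma), but by end events alone its log2 difference was 0.79 (adjusted p = 0.200). Rgs11 (chr17:26202951-26211324) overlaps Arhgdig (chr17:26199183-26207786) on the opposite strand, so these 2 rises may not be separate. Fam234a, 12734 bases away, rose by 0.85 (adjusted p = 7.98e-05) and Tmem8, 72744 bases away, by 0.72 (adjusted p = 0.00190, limma, and 0.0548 by end events alone). On the other side Axin1, a scaffold of the complex that degrades beta-catenin, lies 187 bases from Pdia2 and was at 18.9 ± 0.946 FPKM in WT and 14.5 ± 3.97 FPKM in MG53-TG (-0.40, adjusted p = 0.0958, limma). It passed as lower when MG53-TG 1 was left out (adjusted p = 0.0357, limma). Luc7l (0.89, adjusted p = 0.125) and Mrpl28 (0.21, adjusted p = 0.185, limma) did not pass. The log2 difference of Luc7l was 0.42 without WT 1, which stood at 3.41 FPKM against 12.9 to 17.5 FPKM in the other WT samples, and 0.42 by end events alone. Mrpl28 did pass with median-of-ratios scaling (0.40, adjusted p = 0.0117). The strand of the libraries is not given in the sources used here. Whether Arhgdig shares reads or transcripts with Pdia2 or with Rgs11 was not tested.

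Next to Dnase1, Trap1, a mitochondrial chaperone of the HSP90 family, overlaps it by 54 bases on the opposite strand. Trap1 stood at 56.4, 54.2, 55.3 and 24.4 FPKM in WT 1 to 4 and at 44.7, 51.4, 39.5 and 38.3 FPKM in MG53-TG 1 to 4, with overlapping groups (log2 difference -0.06, adjusted p = 0.859, limma). Without WT 4 its log2 difference was -0.35 (adjusted p = 0.0559, limma). Nlrc3, a regulator of innate immune signalling 60309 bases away, had no entry in WT and 1.47, 0.138, 2.39 and 1.02 FPKM in MG53-TG, and it lay under the filter when MG53-TG 3 was left out. Slx4, a scaffold of DNA repair nucleases 33171 bases away, rose from 1.42 ± 0.875 to 3.23 ± 0.768 FPKM (0.87, adjusted p = 0.0405, limma). That call was lost when WT 1, WT 3, MG53-TG 1, MG53-TG 2 or MG53-TG 4 was left out, with an adjusted p of up to 0.0870 (limma), and without WT 4 the log2 difference was 0.57. Cluap1 (0.14) and Crebbp, the histone acetyltransferase (-0.07), did not pass (adjusted p = 0.414 and 0.731, limma).

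**Figure D4:**
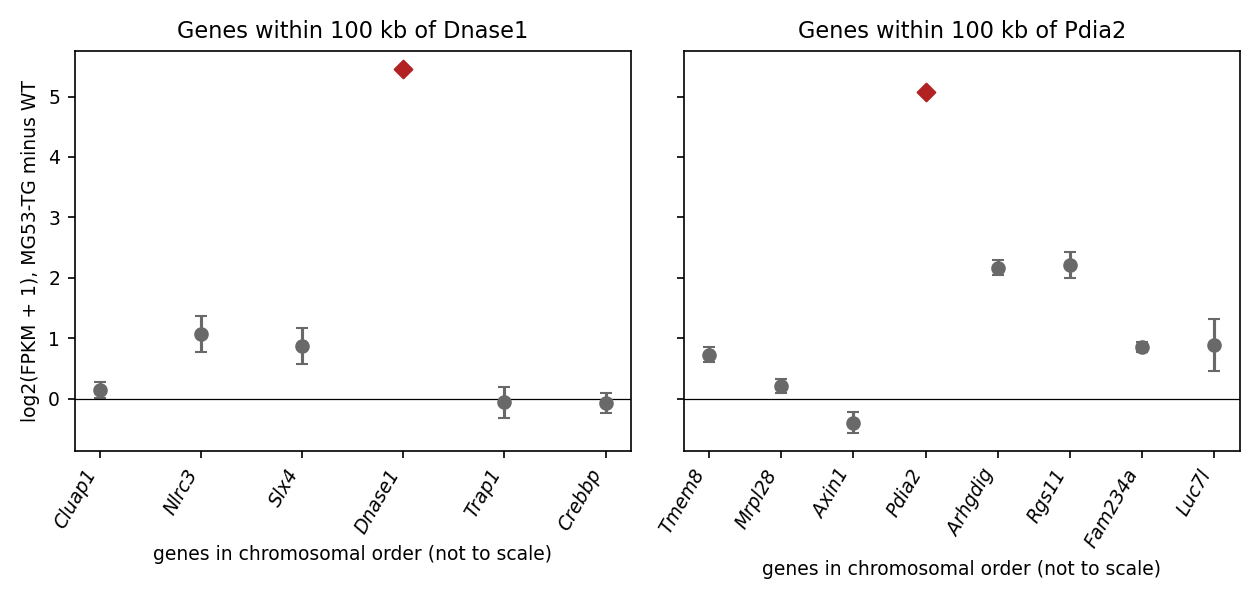
Difference of log2(FPKM + 1), MG53-TG minus WT, of the protein-coding genes within 100 kb of Dnase1 (left) and Pdia2 (right), in order along the chromosome and not to scale. Red diamonds are Dnase1 (5.46) and Pdia2 (5.07), grey points are neighbours with their SE. The largest values among neighbours are those of Rgs11 (2.21) and Arhgdig (2.16), which overlap each other on opposite strands.

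The pattern over the 8 samples was compared between each of the genes and 9844 protein-coding genes without a missing value, as the root mean square difference of log2(FPKM + 1) after centring each gene on its mean. These are descriptions, as the genes share all samples and the group difference dominates. The order depends on the added 1 FPKM, since Dnase1 in WT lies below it. On this scale nearest to Dnase1 was Pdia2 (0.34), followed by Trim72 (0.35), Ugt2b38 (0.36), Reg3a (0.39) and Slc6a19, the neutral amino acid transporter of the brush border (0.45). Nearest to Pdia2 were C4bp, a complement regulator (0.28), and Slc6a19 (0.28), then Dnase1 (0.34), Trim72 (0.38) and Fabp1, the liver-type fatty acid binding protein of enterocytes (0.44). With 0.1 FPKM added in place of 1, Pdia2 stood at place 12 from Dnase1 (0.96) and Dnase1 at place 69 from Pdia2. Reg3a (0.41) and Reg1 (0.48) were then among the genes nearer to Dnase1 than Pdia2 was, while Slc6a19 (0.19) and C4bp (0.21) remained the nearest to Pdia2. C4bp rose from 1.42, 1.83, 2.06 and 2.64 FPKM in WT to 59.2, 65.0, 75.3 and 90.5 FPKM in MG53-TG. Slc6a19 rose from 0.835, 0.915, 0.991 and 1.27 to 49.4, 41.4, 51.4 and 54.3 FPKM. Reg3a rose from between 0.359 and 0.571 FPKM to 42.1, 43.1, 118 and 117 FPKM, and Fabp1 from 213 to 301 FPKM to between 5286 and 6099 FPKM. Ugt2b38 rose from between 0.472 and 1.20 FPKM to between 40.2 and 77.6 FPKM, but when events were assigned by exon coordinates its log2 difference was 0.81 (adjusted p = 0.358, limma).

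Markers of several cell types moved between the same groups, and their part in the levels of Dnase1 and Pdia2 was not tested. The counts below stand against 15.7% of all genes called higher and 29.3% called lower. All 8 enterocyte markers rose (limma), and their sum went from 534 to 660 FPKM in WT to 8025 to 10730 FPKM in MG53-TG. Of 11 Paneth cell markers 10 were tested, 0 rose and 9 fell, or 5 of 6 without Defa21, Defa22, Defa26 and Pla2g2a, which passed the filter through WT alone, and the sum went from 1240 to 1665 FPKM to 263 to 461 FPKM, with Ang4 the 1 marker without an entry. Dnase1, known from Paneth cells, was higher in the samples in which Paneth markers were lower, and which cells held it here was not tested. Of 8 goblet cell markers 7 were tested, 0 rose and 5 fell, with sums of 686 to 779 and 184 to 506 FPKM, and this list shares Agr2 with the isomerase list and Zg16 with the pancreas list. Of 8 enteroendocrine markers 6 were tested, 4 rose and 0 fell, with sums of 202 to 229 and 337 to 479 FPKM. Of 5 stem cell markers 4 fell, with sums of 342 to 497 and 32.8 to 181 FPKM. Tuft cell markers summed to 0.451 to 1.73 FPKM in WT and 0 to 0.687 FPKM in MG53-TG, with Dclk1, Gnat3 and Il25 without an entry. At an unadjusted p under 0.05 (limma) still 0 Paneth and 0 goblet markers were higher and 0 enteroendocrine markers lower. Immune markers summed to 3.77 to 9.24 and 0.609 to 1.47 FPKM, and the 3 endothelial markers had no entry. Mesenchymal markers summed to 1.80 to 3.24 FPKM in WT and 1.31 to 5.58 FPKM in MG53-TG. Among them the fibroblast collagens Col1a2 and Col3a1 had no entry in WT or in MG53-TG 1, with Col1a2 at 2.07, 0.926 and 0.739 FPKM and Col3a1 at 1.62, 0.904 and 1.25 FPKM in MG53-TG 2 to 4. No call is given for these collagens, as they passed the filter through those 3 samples alone and lay under it when each sample without an entry was taken as 0.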

How the data were processed

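Total RNA of 8 organoid samples was sequenced by the authors, and the labels name cutadapt 1.9.1, HISAT2 2.0.1, HTSeq 0.6.1, DESeq2 and the mm10 build. The authors deposited 1 table per sample with the FPKM of each transcript event. The tool that made these tables is not given in the sources used here. The value of a gene was the sum of FPKM over its start events, or over its end events if that mean was higher. Where a sample lacked a gene, the value was set to 0, or treated as missing if the median of the remaining samples in the group reached 0.5 FPKM. Of the start and end events, 85.3% carried the gene identifier that the annotated exon boundary gives (GENCODE, GRCm38). Genes whose mean over the 8 samples reached 0.5 FPKM were tested with limma 3.58.1 (lmFit, eBayes with trend, R 4.3.3) on log2(FPKM + 1) of 4 WT and 4 MG53-TG samples, two-sided, and called at a Benjamini-Hochberg adjusted p of 0.05 or less.

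On simulated data for this comparison with 10362 genes, of which 200 were changed, the fit recovered 69% of changes of 1 and 95% of changes of 2 (log2), and called 12 unchanged genes. The simulated noise was independent between samples and few genes changed. In the data 45.0% of genes were called and MG53-TG 1 and 2 stood apart from MG53-TG 3 and 4. These rates therefore need not hold for the data. From each list the genes named are those past the threshold, up to 5 in each direction by size of the difference, together with all neighbours tested and the 5 nearest patterns, while Dnase2a, Dnase1l2 and the leading genes by rank were named after their values were seen. The members and lists were chosen with earlier results of these data known. Alternatives were another pseudocount, filters, scalings, start or end events alone, events assigned by coordinates, the replicate number as a block and each sample left out, with the fits of MG53-TG 1 and 2 or 3 and 4 alone, samples without an entry always taken as 0, and the nearest patterns with 0.1 FPKM added, all chosen after seeing the data. Upstream sequences came from the RefSeq promoter table, which held both genes, and exon sequences from the GENCODE transcripts.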

Additional observations from a re-analysis of the deposited data

Results flagged for a closer look

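A single value far from the other 3 was sought in 77 groups of 4 samples. The groups came from the members, the genes named from the lists, the neighbours and the genes with the nearest patterns. Such a value was found in 4 groups, where chance gives about 1 in 20 groups, or 3.85. Neither Dnase1 nor Pdia2 was among them. Arhgdig, the neighbour 95 bases upstream of Pdia2, stood at 14.5 FPKM in WT 4 against 11.9 to 12.1 FPKM in the other WT samples, and WT 4 was also the highest WT sample for Pdia2. Trap1, which overlaps Dnase1 by 54 bases, stood at 24.4 FPKM in WT 4 against 54.2 to 56.4 FPKM in the others. Tmem8 stood at 19.5 FPKM in WT 2 against 13.9 to 14.2 FPKM. Sycn stood at 0.285 FPKM in MG53-TG 2 and had no entry in the other 3 samples of its group, which were taken as 0.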

How the results depend on the processing

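Dnase1 and Pdia2 stayed higher in MG53-TG under all alternatives run. With a pseudocount of 0.1 their log2 differences became 7.17 and 5.39, and from end events alone that of Dnase1 became 4.74. Leaving out 1 sample at a time gave 5.37 to 5.59 for Dnase1 and 4.95 to 5.26 for Pdia2. The counts of called genes, over all genes (3633 to 5856) and in the lists and neighbours, stayed within 1.5 times the main count. These counts include Nlrc3, Pnliprp1, Sycn and Bhlha15. Of the 5 neighbours counted as higher without Nlrc3, Rgs11 and Tmem8 lost the call by end events alone (adjusted p = 0.200 and 0.0548, limma). That moved this count by more than 1.5 times. Of 38 other named genes, 26 kept their direction and call in each of the 17 alternatives that gave them a value. There was no value in 1 or more of these for 10 genes, among them Nlrc3, which had none without MG53-TG 3, from start events alone or with a mean of at least 2 FPKM. Fits with MG53-TG 1 and 2 only or MG53-TG 3 and 4 only, chosen after seeing the data, called 3803 and 5856 genes, and taking each sample without an entry as 0, likewise chosen after seeing the data, called 4759 genes and 8 of the pancreas list in place of 9. The replicate numbers did not pair the samples, as same-numbered samples deviated from their group means with correlations of 0.0867, -0.0110, 0.0955 and -0.0400. A fit with the replicate number as a block called 4390 genes, 4191 of them among the 4816, and among the named genes changed the call of Pnliprp1 alone (adjusted p = 0.0788, limma), for which no call is given; the differences of Dnase1 and Pdia2 stayed at 5.46 and 5.07. Of single neighbours not past the threshold, the log2 difference of Cluap1 turned to -0.47 by end events alone and by exon coordinates, that of Trap1 to 0.12 with median-of-ratios scaling and that of Crebbp to 0.0623 and 0.0591 with median-of-ratios scaling and quantile normalization. Leaving out 1 sample at a time gave -0.35 to 0.0426 for Trap1, above 0 without WT 1, WT 2 or WT 3, and -0.16 to 0.00496 for Crebbp, above 0 without MG53-TG 4. Median-of-ratios scaling and quantile normalization moved the median of all genes by 0.16 and 0.11 (log2), and the cause of these shifts was not tested. The WT level of Dnase1, under 1 FPKM, limits how exactly its ratio is known.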
